A study of Mus musculus with 24 samples.

Results

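Interleukin 4 (IL4) and interferon gamma (IFNg) drive macrophages towards opposed states, and the comparison described here set IL4 against IFNg in macrophages that lack CITED2. The members were the libraries labelled CITED2-KO with IL4 (KO IL4, 3 libraries) and with IFNg (KO IFNg, 3 libraries), 6 of the 24 libraries of the series, with 18637 of 43629 gene identifiers kept because 3 or more libraries had a value no lower than 1. The same contrast in wild-type cells (WT IL4 and WT IFNg, 3 libraries each) served as the measure of whether it narrowed without CITED2. All cells were bone marrow-derived macrophages (BMDMs), that is, macrophages differentiated in the dish from marrow cells, and came from C57BL/6 mice at postnatal week 10, and untreated libraries of each genotype (KO control and WT control, 3 each) were also available. The labels give neither how Cited2 was deleted, nor the dose or duration of the cytokines, nor whether the replicates are separate animals or separate cultures. The p-values therefore reflect the spread among these libraries alone, which may be technical.

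CITED2 is a transcriptional co-regulator without a DNA-binding domain of its own. It binds the coactivators CBP and p300, for which HIF-1α, STAT factors and other activators also compete. IFNg acts through its receptor and JAK kinases on genes with GAS elements, and induces IRF1, guanylate-binding proteins (GBPs), immunity-related GTPases, antigen-processing genes, Nos2 and chemokines such as Cxcl9. IL4 acts through its receptor on STAT6, which induces Arg1, Retnla, Chil3 and Mrc1, the classical markers of alternatively activated mouse macrophages. Type I interferon acts through STAT2 and IRF9 on a partly shared set of interferon-stimulated genes, the ISRE-bearing genes.

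The regulatory sequences in question are shown by 4 promoters of preset markers, each the 300 bases from 250 before to 50 after the start of the gene (RefSeq, GRCm38.p6), written 5′ to 3′ along the plus strand, on which all 4 genes lie. Capitals mark the motif matches: TTC and GAA separated by 4 bases, the spacing preferred by STAT6, in Retnla (chr16:48842359-48842658) and Pdcd1lg2 (chr19:29410669-29410968), TTC and GAA separated by 3 bases (TTCNNNGAA), the spacing of GAS elements, in Irf1 (chr11:53769764-53770063), and GAAA repeated after 2 bases, an ISRE-like repeat bound by IRF factors, in Gbp2 (chr3:142620413-142620712), where it was matched on the opposite strand.
Retnla: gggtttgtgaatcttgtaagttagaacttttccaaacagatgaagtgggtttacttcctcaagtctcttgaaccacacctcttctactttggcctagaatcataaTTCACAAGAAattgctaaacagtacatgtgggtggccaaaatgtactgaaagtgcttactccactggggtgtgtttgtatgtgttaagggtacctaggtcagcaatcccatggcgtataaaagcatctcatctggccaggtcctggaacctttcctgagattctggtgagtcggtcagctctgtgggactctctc
Pdcd1lg2: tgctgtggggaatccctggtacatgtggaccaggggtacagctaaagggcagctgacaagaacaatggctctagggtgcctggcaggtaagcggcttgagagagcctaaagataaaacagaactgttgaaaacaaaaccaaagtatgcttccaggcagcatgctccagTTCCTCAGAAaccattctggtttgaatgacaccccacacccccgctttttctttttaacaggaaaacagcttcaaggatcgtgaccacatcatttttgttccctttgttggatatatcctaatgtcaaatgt
Irf1: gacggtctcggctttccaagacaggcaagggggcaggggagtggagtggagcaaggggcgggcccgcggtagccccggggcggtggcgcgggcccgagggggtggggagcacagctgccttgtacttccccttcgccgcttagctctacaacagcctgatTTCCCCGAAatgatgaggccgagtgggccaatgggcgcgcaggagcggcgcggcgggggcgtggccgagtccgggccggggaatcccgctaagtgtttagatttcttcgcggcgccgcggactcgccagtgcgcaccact
Gbp2: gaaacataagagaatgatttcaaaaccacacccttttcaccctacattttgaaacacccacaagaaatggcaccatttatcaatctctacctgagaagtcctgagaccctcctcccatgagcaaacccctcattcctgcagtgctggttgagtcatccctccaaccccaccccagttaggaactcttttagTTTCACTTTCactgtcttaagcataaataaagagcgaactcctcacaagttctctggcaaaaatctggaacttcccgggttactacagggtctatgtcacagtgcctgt
The matches began 145 bases before the start in Retnla, 82 before it in Pdcd1lg2, 90 before it in Irf1 and 59 before it in Gbp2. These 4 windows held no match of the other motifs. A second Irf1 window in RefSeq (chr11:53770223-53770522) and the windows of Mrc1, Cxcl9 and Il12b held none of the 3 motifs, and that of Chil3 held 1 match of the GAS spacing and none of the STAT6 spacing.

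Values were normalised read counts. Reads per library numbered 19398578 to 35103064 in KO IL4, 15893968 to 42477121 in KO IFNg, 20466925 to 33852471 in WT IL4 and 28455953 to 73409343 in WT IFNg, and 1 read was worth 0.355 to 1.69 units. The libraries had the profile of macrophages: 27 of 28 identity genes were measured, among them Csf1r, the receptor for macrophage colony-stimulating factor, with a mean of 64560 in KO IL4 and 47980 in KO IFNg. The summed level of the 27 genes was 881500 to 884600 in KO IL4, 888300 to 906200 in KO IFNg, 808600 to 822400 in WT IL4 and 779300 to 791100 in WT IFNg. In bulk libraries such as these, fewer cells of a type and less RNA per cell cannot be told apart. On principal components of the 12 libraries the first component (89.2% of the variance) separated the cytokines. KO IL4 libraries scored 47.5 to 51.6 on it, KO IFNg −57.4 to −55.7, WT IL4 64.7 to 65.6 and WT IFNg −59.2 to −57.6. On the third component (1.81%) replicate 1 stood apart in both KO groups, at −13.7 against −5.89 and −1.46 in KO IL4 and at 15.1 against 3.9 and 6.65 in KO IFNg.

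Cited2 (chr10:17723218-17725674, plus strand) had 12.4, 14.3 and 8.52 in the KO IL4 libraries and 11.9, 10.2 and 18.7 in the KO IFNg libraries, against 1117, 1207 and 1120.2 in WT IL4 and 2308, 2623 and 2383 in WT IFNg. The KO level was 1.02% of WT with IL4 and 0.558% of WT with IFNg, so the labels held in all 12 libraries. In WT cells Cited2 was itself lower with IL4 than with IFNg, with a log2 difference of −1.08 ± 0.34 (adjusted p = 0.01).

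The contrast remained large without CITED2. IL4-treated KO cells expressed Arg1, Tmem26, Abcd2, Irf4 and Ptgs1 far above IFNg-treated KO cells, and Cxcl9, Cxcl10, Il12b, Nos2 and the interferon-inducible GTPases far below them. In limma's test with Benjamini-Hochberg adjustment, in which a gene was called at an adjusted p below 0.05, 7850 of 18637 genes (42.1%) differed between KO IL4 and KO IFNg: 3973 (21.3%) were higher with IL4 and 3877 (20.8%) lower. In WT 8172 genes (43.8%) were called, 4034 (21.6%) higher with IL4 and 4138 (22.2%) lower. At a log2 difference of at least 1 in size, 1841 genes (9.88%) were higher with IL4 and 1562 (8.38%) lower in KO, and 1877 (10.1%) were higher and 1847 (9.91%) lower in WT. Of the genes higher with IL4 at this size, 1343 were shared, which is 72.9% of the KO genes and 71.6% of the WT genes. Of those higher with IFNg, 1345 were shared, 86.1% of the KO genes and 72.8% of the WT genes. The split depends on scaling: with each library centred on its median, which moved IL4 against IFNg by 0.34 on the log2 scale in KO and 0.31 in WT, 2169 genes were higher and 6029 lower with IL4 in KO, and 2337 higher and 5952 lower in WT.

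Among the genes higher with IL4 in KO cells, Arg1 (arginase 1, which converts arginine to ornithine) had 468, 420.3 and 441 in KO IL4, against 1.69, 3.84 and 8.03 in KO IFNg, a log2 difference of 6.5 ± 0.47 (adjusted p = 2.3e-11). The groups were far apart, and the KO control libraries held at most 1.75. Tmem26, a transmembrane protein gene, had 899, 739.7 and 808 in KO IL4, against 10.2, 4.47 and 0 in KO IFNg (7.69 ± 0.53). Abcd2, a peroxisomal fatty acid transporter, had 2273, 1961 and 2149, against 11.9, 15.3 and 16.1 (7.12 ± 0.13). No library of one cytokine reached the level of the other for these genes, whose WT contrasts were 8.59 for Tmem26 and 7.0 for Abcd2. The next largest were Ksr2 (5.25 in KO and 5.71 in WT), Plekhf1 (5.20 and 5.62), Ptgs1, the constitutive cyclooxygenase (4.89 and 4.92), Il4i1, a secreted amino acid oxidase (4.66 and 4.93), and Irf4, a transcription factor of alternative activation (4.59 and 5.25).

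At the other end, Cxcl9, a chemokine for CXCR3-bearing lymphocytes, had 196, 127 and 111 in KO IL4, against 205353, 206580 and 215884 in KO IFNg, so that the KO IL4 mean was 0.0691% of the KO IFNg mean. Il12b, a subunit of interleukin 12 and interleukin 23, had 6.50, 1.95 and 1.06, against 4281, 5007 and 4779.5 (0.0677%). Nos2, the inducible nitric oxide synthase, had 115, 141 and 124, against 37886, 33795 and 35056 (0.355%). These genes were low in every KO IL4 library and high in every KO IFNg library. Upp1 (uridine phosphorylase), Cxcl10, Tgtp1, Iigp1 and Serpina3f completed the 8 largest falls, with KO IL4 at 0.178% to 0.346% of KO IFNg. The same percentages in WT were lower for each of these 8 genes, between 0.0135% for Cxcl9 and 0.116% for Nos2. However, the difference between the KO and WT contrasts was not called for Il12b or Upp1. Il12b had 15 reads in all in KO IL4 and 9 in WT IL4.

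**Figure D1:**
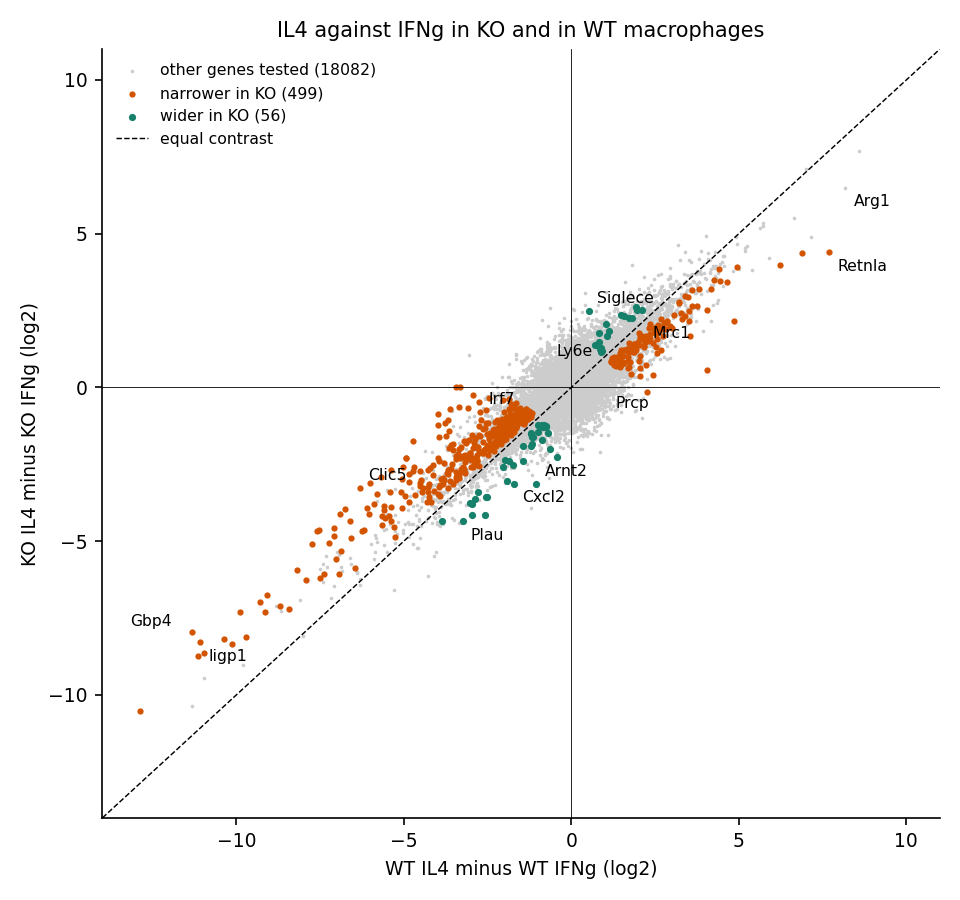
Log2 difference of IL4 against IFNg for each of 18637 genes in KO macrophages (vertical axis) against WT macrophages (horizontal axis). Orange points are the 499 genes whose contrast was smaller in KO and green points the 56 whose contrast was larger, the other 18082 are grey, and the dashed line marks equal contrasts. Most orange points lie at the left, among genes higher with IFNg.

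On the deposited scaling the contrast was smaller in KO for genes higher with IFNg and of similar size for genes higher with IL4. Genes with a called log2 difference of at least 1 in size, averaged over both genotypes with equal weight, were 1838 IFNg-high genes (9.86% of genes tested) and 2163 IL4-high genes (11.6%). Over the IFNg-high genes the median contrast was −1.64 in KO and −1.93 in WT, the median of the gene-wise difference was 0.26 on the log2 scale, and 72.9% of the genes had a smaller contrast in KO. Over the IL4-high genes the medians were 1.53 in KO and 1.53 in WT, the median gene-wise difference was −0.04, and 53.9% had a smaller contrast in KO. Over all genes tested the median difference was 0.04, and 54.8% had a smaller contrast in KO. The gap between the 2 sets depends on the processing. With median centring the median gene-wise difference was 0.16 for IFNg-high and −0.11 for IL4-high genes. For IL4-high genes it was −0.10 with thinned reads and −0.10 with a pseudocount of 10. These sets give no test of their own, and the values describe the genes at the stated sizes.

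The difference between the contrasts was tested gene by gene. It was called for 974 genes (5.23%), with 626 (3.36%) positive and 348 (1.87%) negative. Among the 4001 genes of both sets, 499 (12.5%) had a smaller contrast in KO and 56 (1.4%) a larger one. Of the IFNg-high genes 377 (20.5%) were narrower and 38 (2.07%) wider, and of the IL4-high genes 122 (5.64%) were narrower and 18 (0.832%) wider. Without replicate 1 of both KO groups, 362 genes were narrower and 46 wider.

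Because the difference of the contrasts is, for each gene, KO minus WT with IL4 less KO minus WT with IFNg, the same values show in which cytokine the genotypes stood apart. Over the 377 narrower IFNg-high genes KO minus WT had a median of 0.60 with IL4 and −0.06 with IFNg. With IL4, 287 of them were called higher and 3 lower in KO, and with IFNg 64 were called higher and 105 lower. In all genes tested 1145 (6.14%) were called higher and 586 (3.14%) lower in KO with IL4, and 901 (4.83%) higher and 785 (4.21%) lower with IFNg. Over the 122 narrower IL4-high genes KO minus WT had a median of −0.15 with IL4, with 13 called higher and 45 lower in KO, and of 0.47 with IFNg, with 85 higher and 3 lower. The choice of narrower genes fixes which of these medians is the higher, and not whether a shift lies with IL4 or with IFNg. Thus the narrower IFNg-high genes stood higher in KO mainly with IL4, and the narrower IL4-high genes stood higher in KO mainly with IFNg.

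Per library, the mean log2 level of the 1838 IFNg-high genes was 6.43, 6.35 and 6.36 in KO IL4, against 8.37, 8.37 and 8.38 in KO IFNg, and 6.13, 6.12 and 6.08 in WT IL4, against 8.47, 8.49 and 8.47 in WT IFNg. The KO IL4 libraries were all above the WT IL4 libraries and the KO IFNg libraries all below the WT IFNg libraries. Untreated cells averaged 6.01 ± 0.03 in KO control and 6.02 ± 0.07 in WT control (SD, n = 3 each). The mean of the 2163 IL4-high genes was 6.48 ± 0.01 in KO IL4, 4.77 ± 0.04 in KO IFNg, 6.64 ± 0.01 in WT IL4 and 4.87 ± 0.02 in WT IFNg (SD, n = 3 each). These genes were therefore a little lower in KO under both cytokines, and 6.38 in KO control and 6.43 in WT control.

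**Figure D2:**
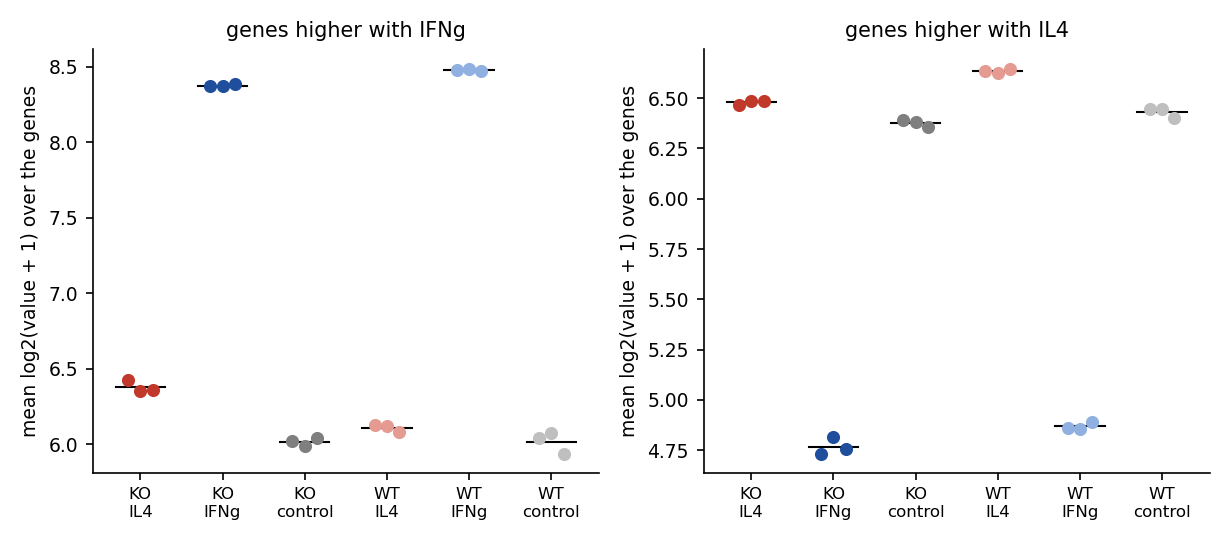
Mean log2(value + 1) over the IFNg-high genes (left panel) and the IL4-high genes (right panel) in each library of 6 groups. Points are libraries and bars the mean of the group. In the left panel the KO IL4 libraries sit at 6.35 to 6.43, above the WT IL4 libraries at 6.08 to 6.13.

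Among the interferon-inducible GTPases, which act against intracellular pathogens, every measured member but Gvin1 stood higher in KO with IL4. Of 20 listed genes 18 were measured, 17 were called lower with IL4 in KO and 18 in WT. A positive difference of the contrasts was called for 18, which includes Gvin1 on its WT contrast alone, and for 17 with edgeR and with DESeq2. Their median contrast was −4.26 in KO and −6.17 in WT, against 0.04 in KO and 0.01 in WT over all genes tested. With IL4, 17 of the 18 were higher in KO than in WT (median 2.13 on the log2 scale) and 1 was lower. With IFNg 1 was called lower in KO (median −0.03).

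Gbp4 (chr5:105115767-105139586, minus strand) had 337, 226 and 256 in KO IL4, against 65512, 69458 and 67874 in KO IFNg, and 25.9, 24 and 21.7 in WT IL4, against 60836, 65387 and 63826 in WT IFNg. With either cytokine every KO library was above every WT library. The KO mean was 1.07 times the WT mean with IFNg and 11.4 times with IL4. The contrast was −7.97 in KO and −11.32 in WT, a difference of 3.35 ± 0.36 (adjusted p = 6.6e-07). Untreated KO cells had 20.8, 30.3 and 38.6, so the level with IL4 was above that without cytokine in KO (3.17) and close to it in WT (−0.07).

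Iigp1, an immunity-related GTPase that loads onto parasite vacuoles, had 532, 346 and 368 in KO IL4, against 116432, 136445 and 130861 in KO IFNg, and 65.1, 55.5 and 61.2 in WT IL4, against 125993, 142760 and 134834 in WT IFNg. For Iigp1 the IFNg groups of the genotypes overlapped and the IL4 groups did not, and the difference of the contrasts was 2.81 ± 0.33 (adjusted p = 2.1e-06). Gbp2, whose promoter is printed above, had 17429, 15179.9 and 15901 in KO IL4, against 393160, 409771 and 416624 in KO IFNg, and 5363, 5367 and 5400.4 in WT IL4, against 388903, 421762 and 417383 in WT IFNg. Untreated cells had a mean of 586 in KO control and 479 in WT control, below every IL4 library. The difference of the contrasts was 1.59 ± 0.14 (adjusted p = 4.1e-08). Gbp3 (2.17), Gbp5 (2.31), Gbp9 (2.13) and Tgtp1 (2.33, a call lost under 14 of 24 alternatives) were also narrower. Gbp4 overlaps Gbp8 and Gbp9 on the same strand, and the Gbp, Tgtp and Gvin families hold near-identical copies, so reads may have been split between members.

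Gvin1 differed from the rest of this list. It had no read in any KO library of the IL4, IFNg or control groups, against 26.5, 32.0 and 44.3 in WT IL4 and 326, 345 and 359 in WT IFNg. Its KO level was at least 47.6-fold lower with IL4 and at least 332-fold lower with IFNg, computed against 3 reads over the KO group. No contrast can be measured for it in KO, and its difference of 3.32 holds only the WT contrast.

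Genes induced by type I interferon were higher in IL4-treated KO cells as a group. All 37 measured of 38 were called higher in KO than in WT with IL4 (median 1.58), and 21 were called higher with IFNg (median 0.36) and 0 lower. In KO 36 fell with IL4 against IFNg and 1 rose, with a median of −1.49. In WT 36 fell, with a median of −2.81. The difference of the contrasts was positive and called for 36. Against untreated cells of the same genotype, IL4 raised 36 and lowered 1 in KO (median 2.25), where 2351 of all genes (12.6%) were called higher and 1965 (10.5%) lower, and raised 27 and lowered 3 in WT (median 0.51), where 1967 (10.6%) were called higher and 1782 (9.56%) lower. Ifi44 and the Ifit genes had the largest shifts: the difference of the contrasts was 2.75 for Ifi44, 2.64 for Ifit2, 2.43 for Ifit3 and 2.17 for Ifit1. These 4 genes were chosen after their values were seen.

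Mx1, a dynamin-like antiviral GTPase, had 728, 617 and 706 in KO IL4, against 7632, 7454 and 7349 in KO IFNg, and 104, 101 and 103 in WT IL4, against 5769, 6065 and 5652 in WT IFNg. The WT IL4 libraries were at the untreated level (mean 111) and the KO IL4 libraries were well above theirs (81.8). The difference of the contrasts was 2.36 ± 0.14 (adjusted p = 3.6e-11). Irf7, the transcription factor that amplifies type I interferon responses, had 3239.5, 3834 and 3416 in KO IL4, against 6818, 5527 and 6066 in KO IFNg, and 612, 608 and 566 in WT IL4, against 4094, 3991 and 3808 in WT IFNg. Its contrast was −0.81 in KO and −2.73 in WT, a difference of 1.92 ± 0.15 (adjusted p = 6.7e-09), and the KO IL4 level was 3.12 above KO control on the log2 scale. Zbp1, a sensor of Z-form nucleic acid (1.80), and Usp18, which removes ISG15 from proteins and restrains the interferon receptor (1.34), were also narrower. Ifnb1 itself, looked at after these values were seen, had 2 reads in all in KO IL4, 62 in KO IFNg, 1 in WT IL4 and 90 in WT IFNg, so a genotype difference with IL4 was not detectable at this depth.

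**Figure D3:**
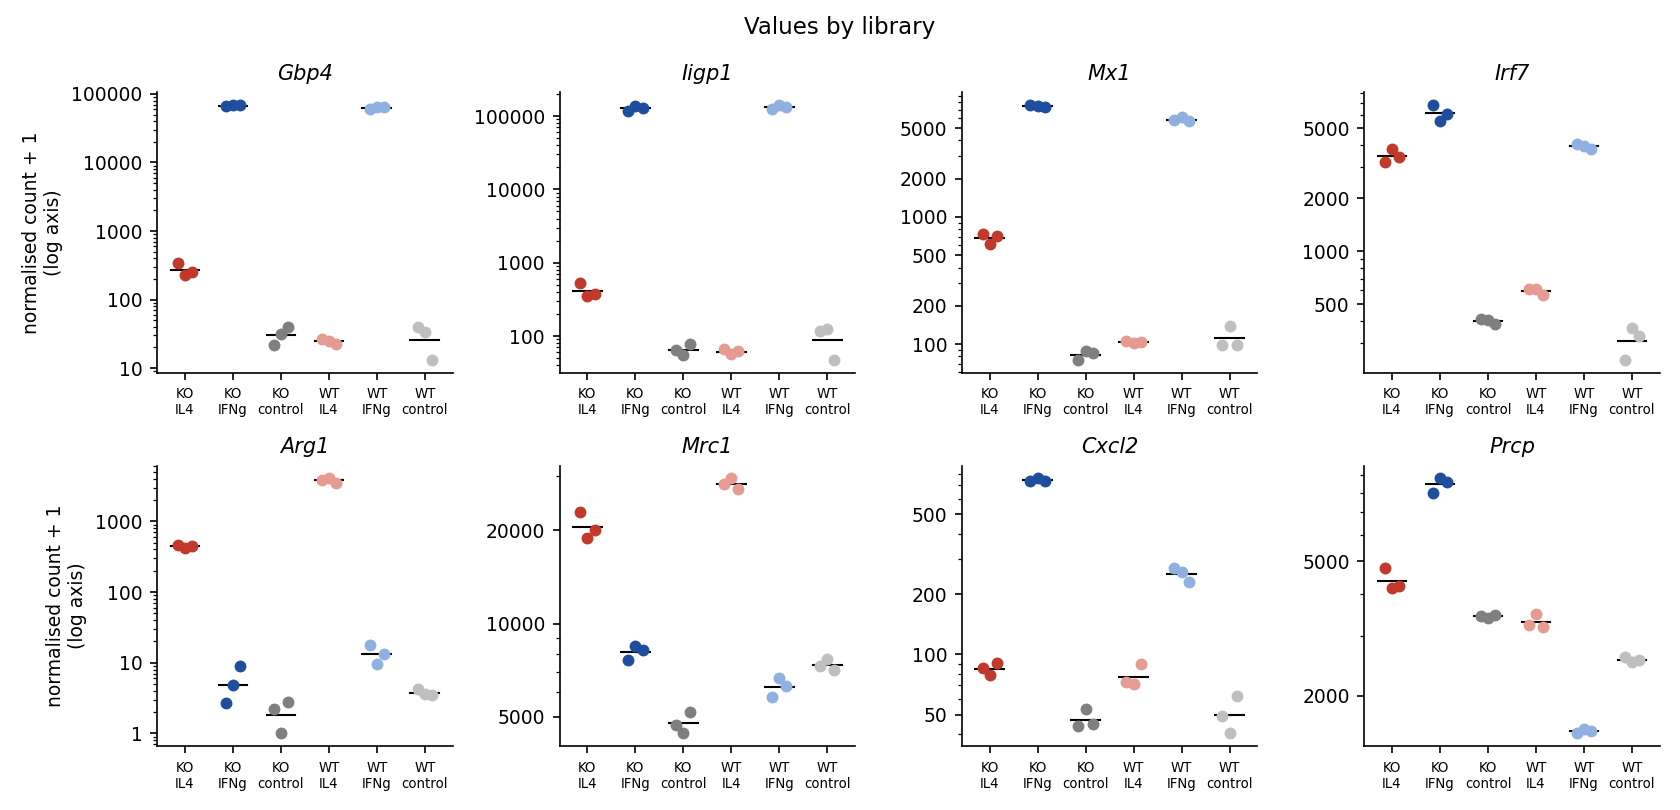
Normalised read count plus 1 on a log axis for Gbp4, Iigp1, Mx1, Irf7, Arg1, Mrc1, Cxcl2 and Prcp in each library of 6 groups. Points are libraries and bars geometric means. Gbp4, Iigp1, Mx1 and Irf7 stand higher in KO IL4 than in WT IL4, Arg1 and Mrc1 lower, and Cxcl2 and Prcp differ most between KO IFNg and WT IFNg.

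Of 30 receptor and JAK-STAT genes measured, 6 rose and 20 fell with IL4 against IFNg in KO (3 and 22 with median centring), and 7 had a positive called difference of the contrasts, with 0 negative. At an unadjusted p below 0.05 there were 13 positive and 3 negative, and edgeR called 9 and 2. The called differences were 23.3% of this list, against 5.23% of all genes tested, of which 21.3% rose and 20.8% fell in KO. Stat2, a transcription factor of type I interferon signalling, had 3992, 3705 and 3922 in KO IL4, against 11375, 10379.5 and 11006 in KO IFNg, and 1837, 1809.7 and 1876 in WT IL4, against 9406, 10192 and 10158 in WT IFNg. Every KO IL4 library was above every WT IL4 library (1.07 on the log2 scale), and KO IFNg and WT IFNg were not called different (0.14 (adjusted p = 0.22)). The difference of the contrasts was 0.93 ± 0.09 (adjusted p = 7.4e-08). Irf1, the promoter of which carries the GAS spacing, was narrower (0.72), while Socs3, a feedback inhibitor of cytokine receptors, had contrasts of −6.03 in KO and −6.39 in WT whose difference was not called (0.36 (adjusted p = 0.17)). Stat6, named after its values were seen, had a mean of 5802 in KO IL4 and 5516 in WT IL4, a log2 difference of 0.07 (adjusted p = 0.38).

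Antigen processing for MHC class I showed the same direction. Of 24 measured genes, 3 rose and 16 fell with IL4 in KO, 16 had a positive called difference of the contrasts and 0 a negative one, and 20 were called higher in KO IL4 than in WT IL4 (median 0.60). Called differences made up 66.7% of this list, against 5.23% of all genes tested. Over all genes 21.3% rose and 20.8% fell with IL4 in KO, and 6.14% were called higher in KO with IL4. Nlrc5, the transactivator of these genes, had 2118, 1969.9 and 1914 in KO IL4, against 15455, 15307 and 15120.2 in KO IFNg, and 1083, 1004 and 1019 in WT IL4, against 14972, 14446 and 14966 in WT IFNg, a difference of 0.90 ± 0.08 (adjusted p = 3.1e-08). Every KO IL4 library was above every WT IL4 library, whereas KO and WT with IFNg were not called different (0.05 (adjusted p = 0.77)). H2-T24 was among the 5 genes of this list whose contrast was not called in KO (−0.14 (adjusted p = 0.18)), and its WT contrast was −1.42 (difference 1.28). Tap1, a subunit of the peptide transporter (0.87), and Psmb8, an immunoproteasome subunit (0.74), had smaller contrasts in KO too. Of 14 MHC class II genes, 3 had a positive and 1 a negative called difference (28.6% of the list). Ciita, their master regulator, had contrasts of −3.46 in KO and −3.82 in WT, and the difference was not called (0.36 (adjusted p = 0.15)). With IL4, 1 class II gene was called higher and 4 lower in KO than in WT, and with IFNg 2 were called higher and 7 lower. The shares over all genes were 6.14% higher and 3.14% lower with IL4, and 4.83% and 4.21% with IFNg.

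Other IFNg targets, 31 measured of 32, had 21 positive called differences and 1 negative (71% of the list, against 5.23% of all genes tested). Their median contrast was about equal in the genotypes, −3.99 in KO and −3.96 in WT, whereas the median of their gene-wise differences was 0.89. Clic5, a chloride intracellular channel protein, had 1194, 1016 and 1126 in KO IL4, against 9932, 11542 and 11121 in KO IFNg, and 97.4, 97.3 and 106 in WT IL4, against 7813, 8301 and 8207 in WT IFNg. The KO IL4 mean was 11.1 times the WT IL4 mean, and the difference of the contrasts was 3.04 ± 0.11 (adjusted p = 8.6e-15). Fcgr1 (1.44) and Fcgr4 (1.60), activating receptors for IgG, the chemokines Cxcl9 (2.34) and Cxcl10 (2.41), Nos2 (1.59), Cd86, a costimulatory ligand (1.12), Serpina3f (2.19), Ly6a (2.90) and Olfr56 (2.90) were narrower in the same direction. Ly6a and Olfr56 were named, like Clic5, by the size of their difference. Olfr56 overlaps Ifi47 on the same strand and Tgtp1 and Tgtp2 on the other, so its reads cannot be told apart from theirs. Irf8, a transcription factor of macrophage development, was the exception, with a wider contrast in KO (−4.35) than in WT (−3.85), since KO IFNg averaged 57604 and WT IFNg 37151 (−0.50 ± 0.08 (adjusted p = 9.3e-05)).

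The ISRE-like repeat of GAAA was matched, on either strand, in 15.4% of 370 promoter windows of the narrower IFNg-high genes, in 7.35% of windows of genes higher with IFNg in KO and in 3.25% of all 14523 windows of genes tested. The GAS spacing TTCNNNGAA was matched in 13.5%, 9.99% and 7.06% of the same windows. The STAT6 spacing of TTC and GAA was matched in 5.14% of the narrower IFNg-high windows, 5.85% of the windows of genes higher with IL4 in KO and 5.65% of all windows. On the IL4 side its share was 8.85% in the 113 windows of the narrower IL4-high genes, and 8.89% in the 506 windows of genes higher with IL4 in KO by a log2 difference of at least 2. At that size the ISRE-like repeat was matched in 9.68% and the GAS spacing in 12.4% of the windows of genes higher with IFNg in KO. These are shares of letters in windows, not of bound sites, and windows were found for 11423 of 18626 symbols.

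**Figure D4:**
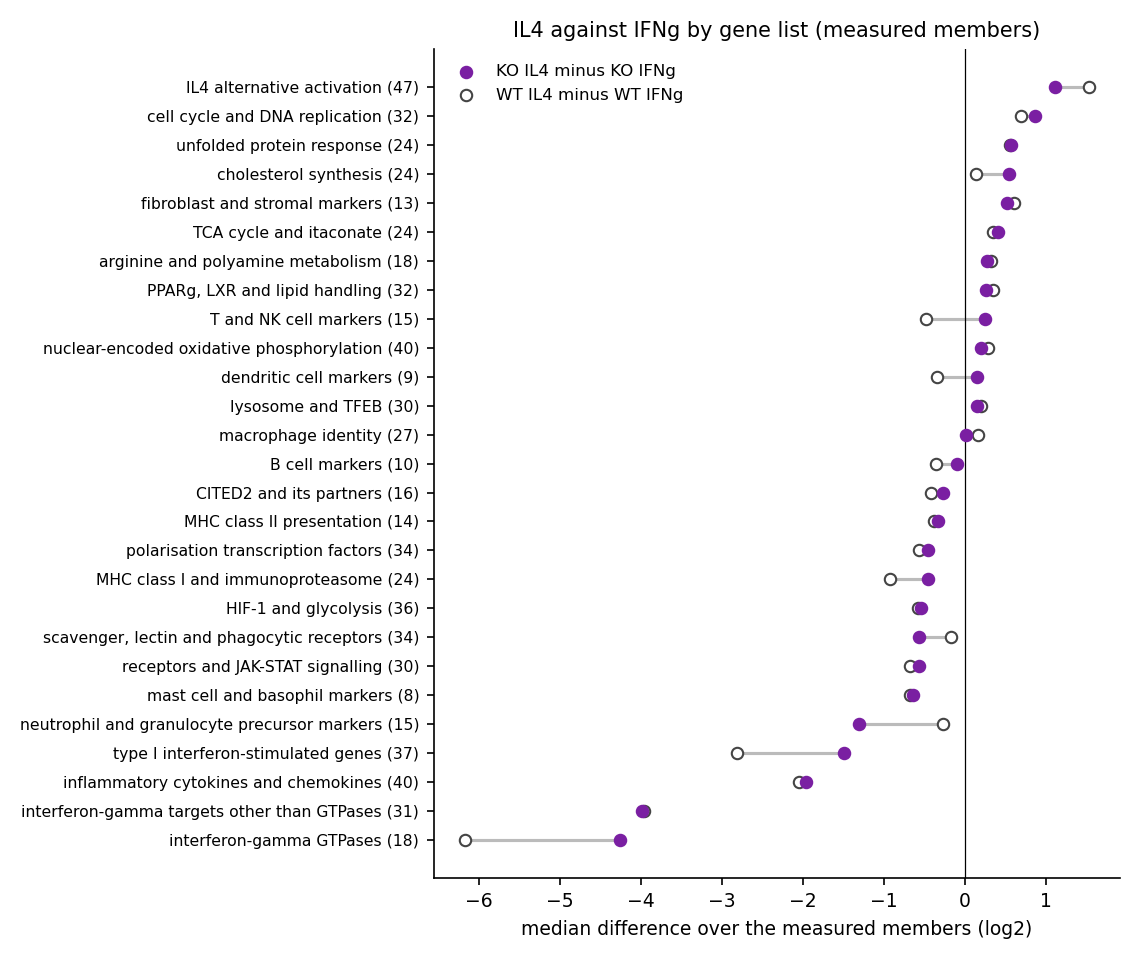
Median log2 difference of IL4 against IFNg for each gene list, in KO (filled points) and WT (open points). The GTPase list lies at −4.26 in KO and −6.17 in WT and the type I interferon list at −1.49 in KO and −2.81 in WT, while most metabolic lists have nearly the same median in both genotypes.

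On the IL4 side the picture was mixed. Of 50 alternative activation genes 47 were measured, 28 rose and 10 fell with IL4 against IFNg in KO (median 1.12) and 33 rose and 8 fell in WT (median 1.53). The difference of the contrasts was negative and called for 12 and positive for 2 (median −0.46), against 20 negative and 4 positive with edgeR and 22 negative and 4 positive with DESeq2. Differences were called for 29.8% of this list, against 5.23% of all genes tested. Of all genes 21.3% rose and 20.8% fell in KO, and 21.6% and 22.2% in WT. With IL4, 6 genes of this list were called higher and 11 lower in KO than in WT. With IFNg 14 were called higher and 7 lower. The shares over all genes were 6.14% higher and 3.14% lower with IL4, and 4.83% and 4.21% with IFNg.

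Retnla, which encodes the secreted protein RELMα and whose promoter carries the STAT6 spacing, had 20.1, 26.0 and 16.0 in KO IL4 and no read in KO IFNg, against 198, 215 and 209 in WT IL4 and no read in WT IFNg. The KO IL4 mean was 9.98% of the WT IL4 mean, and every KO IL4 library was below every WT IL4 library. IL4 was at least 20-fold above IFNg in KO and at least 393-fold in WT, computed against 3 reads over each IFNg group. Its fitted difference of −3.29 ± 0.49 (adjusted p = 5.9e-05) depends on the added 1 because of those zeros, and was no longer called with edgeR, DESeq2 or a pseudocount of 0.1. Arg1 had 3908, 4078 and 3539 in WT IL4, against 17.0, 8.55 and 12.4 in WT IFNg, so the KO IL4 mean was 11.5% of WT IL4 (−3.11 (adjusted p = 4.1e-05)). Its reads with IFNg were few, 13 in KO and 69 in WT, and KO minus WT with IFNg was not called (−1.43 (adjusted p = 0.061)). The difference of the contrasts, −1.68 ± 0.67, was not called either (adjusted p = 0.2).

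Mrc1, the mannose receptor CD206, had 22899, 18967 and 20126 in KO IL4, against 7661, 8479 and 8237 in KO IFNg, and 28349.6, 29489 and 27261 in WT IL4, against 5779.8, 6692 and 6314 in WT IFNg. The groups of each cytokine were apart between genotypes: KO was lower with IL4 (−0.46) and higher with IFNg (0.38). The difference of the contrasts was −0.84 ± 0.11 (adjusted p = 1.2e-05). Chil3, the chitinase-like protein Ym1, was lower in KO with IL4 (−0.64), with contrasts of 4.26 in KO and 4.57 in WT whose difference was not called (−0.31 (adjusted p = 0.3)). Flt1, a receptor for vascular endothelial growth factor, had 5278, 4802 and 5702 in KO IL4, against 903, 929 and 944 in KO IFNg, and 4617, 4355 and 4444 in WT IL4, against 243, 296 and 265 in WT IFNg. Here the IFNg groups carried the difference (−1.56 ± 0.20 (adjusted p = 1e-05)), as they did for the transcription factor Egr2 (−0.76), for Itgax, which encodes CD11c (−0.55), and for Fabp4, a lipid-binding protein and PPARγ target (−0.58).

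Pdcd1lg2, the gene of PD-L2, had 844, 746 and 806 in KO IL4, against 271, 341 and 337 in KO IFNg, which do not overlap, but the log2 difference of 1.34 ± 0.63 (adjusted p = 0.094) was not called with the spread estimated over all 24 libraries. It was called under 6 alternatives. Ccl24, a chemokine for eosinophils, differed by 0.34 (adjusted p = 0.54) in KO, as it was raised over untreated cells by both cytokines.

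Contrasts that were wider in KO were few. Cxcl2, a neutrophil chemokine, had 84.5, 78.1 and 89.5 in KO IL4, against 737, 757 and 731 in KO IFNg, and 71.5, 69.8 and 88.6 in WT IL4, against 268, 258 and 229.9 in WT IFNg. The IL4 groups overlapped and every KO IFNg library was above every WT IFNg library, with a difference of the contrasts of −1.42 ± 0.17 (adjusted p = 2.3e-06). Arnt2, a bHLH-PAS partner factor, had 16.5, 13.7 and 19.2 in KO IL4, against 151, 154 and 155 in KO IFNg, and 9.22, 15.4 and 21.7 in WT IL4, against 28.7, 30.8 and 34.5 in WT IFNg (−2.11 ± 0.48 (adjusted p = 0.0071)). Plau, the urokinase plasminogen activator (−1.09), Plagl1 (−1.16) and Zranb3 (−1.36) were wider in the same direction. Siglece, an inhibitory sialic acid receptor, was wider on the IL4 side and had 115, 124 and 99.0 in KO IL4, against 22, 20.5 and 16.1 in KO IFNg, and 148, 168 and 161 in WT IL4, against 108, 113 and 107 in WT IFNg (1.95 ± 0.35 (adjusted p = 0.00062)). Its KO IFNg libraries stood below the other 3 groups. Trim30d was lower in KO under both cytokines, with means of 161 in KO IL4 and 2857 in KO IFNg, against 842 in WT IL4 and 5078 in WT IFNg (−1.55 ± 0.32).

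Over the 38 wider IFNg-high genes KO minus WT had a median of −0.18 with IL4 and 0.36 with IFNg, and over the 18 wider IL4-high genes of 0.05 with IL4 and −0.52 with IFNg. Inflammatory cytokines and chemokines, 40 measured, had 2 rises and 30 falls with IL4 in KO and 4 rises and 29 falls in WT, with medians of −1.95 in KO and −2.04 in WT. Their differences were divided, 11 positive and 6 negative (median −0.02, of opposite sign in edgeR), 42.5% of the list against 5.23% of all genes tested. Of all genes 21.3% rose and 20.8% fell in KO, and 21.6% and 22.2% in WT. Tnf and Il6, looked at after their values were seen, had contrasts of −5.88 and −5.48 in KO and of −6.47 and −4.09 in WT. Tnf (0.59) and Csf1, the macrophage colony-stimulating factor, (0.90), were narrower, as was Icam1, an adhesion molecule (0.40).

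For 30 genes the contrast was called in opposite directions in the genotypes. Prcp, a lysosomal carboxypeptidase, had 4792, 4180.4 and 4214 in KO IL4, against 8007, 8827 and 8607 in KO IFNg, and 3239.8, 3489 and 3205 in WT IL4, against 1545, 1596 and 1572 in WT IFNg. IL4 was the lower cytokine in KO (−0.95) and the higher one in WT (1.07), and the groups did not overlap in either genotype (difference −2.02 ± 0.08 (adjusted p = 1.4e-14)). Ly6e, a glycosylphosphatidylinositol-anchored interferon-stimulated gene, had 14898, 15760.2 and 14662 in KO IL4, against 9308, 8949.5 and 8816 in KO IFNg, and 6919, 7100.2 and 6741 in WT IL4, against 11438, 11219.9 and 10867 in WT IFNg. It went the opposite way to Prcp, higher with IL4 in KO and lower with IL4 in WT (difference 1.43 ± 0.08 (adjusted p = 3.6e-11)). Nabp1, a single-stranded DNA-binding protein, was 1.03 in KO and −0.42 in WT (difference 1.45), and Emp1, an epithelial membrane protein, −0.24 in KO and 1.12 in WT (difference −1.35). The KO call of Emp1 was lost without KO IL4 replicate 2, KO IFNg replicate 2 or KO IFNg replicate 3, with an adjusted p of up to 0.18.

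**Figure D5:**
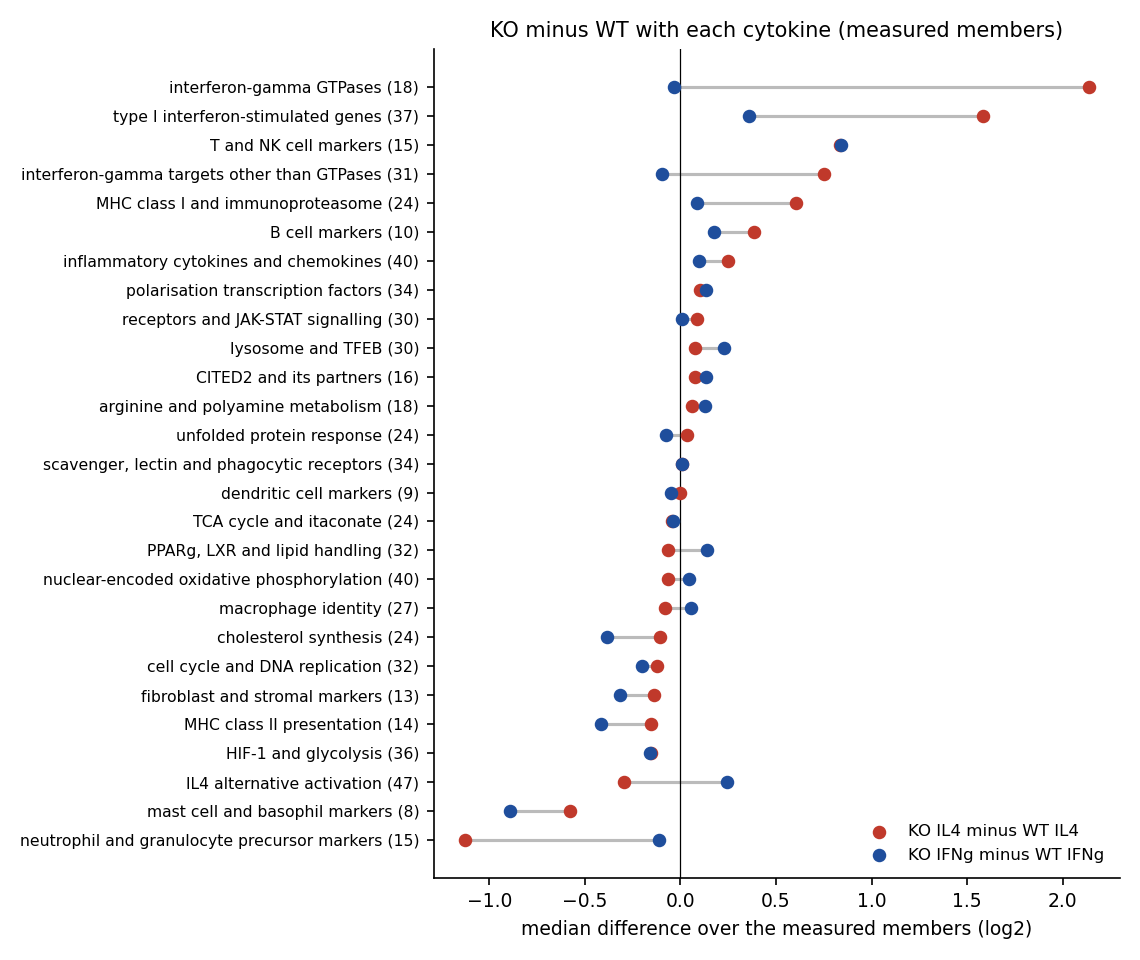
Median log2 difference of KO against WT for each gene list, with IL4 (red) and with IFNg (blue). The GTPase list lies at 2.13 with IL4 and −0.03 with IFNg, and the type I interferon list at 1.58 with IL4 and 0.36 with IFNg.

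Among metabolic lists, differences of the contrasts were called for 0 tricarboxylic acid cycle and 0 oxidative phosphorylation genes, against 5.23% of all genes tested, and for 13.9% of HIF-1 and glycolysis, 15.6% of PPARγ and lipid and 12.5% of cholesterol synthesis genes. With median centring the KO median changed sign for the oxidative phosphorylation, arginine, PPARγ and lipid, lysosome and macrophage identity lists. The WT median changed sign for the oxidative phosphorylation, lysosome, macrophage identity and cholesterol lists. The rises and falls given therefore hold for the deposited scaling. On that scaling 21.3% of all genes tested rose and 20.8% fell with IL4 in KO, and 21.6% and 22.2% in WT. In KO 17 of 24 measured tricarboxylic acid cycle genes rose and 3 fell with IL4 against IFNg, and in WT 16 rose and 3 fell, against 8 and 6 in KO and 8 and 5 in WT with median centring. Idh1, the cytosolic isocitrate dehydrogenase, had a contrast of 3.78 in KO and 3.75 in WT. Of 40 nuclear-encoded oxidative phosphorylation genes, 16 rose and 1 fell in KO and 23 rose and 1 fell in WT, against 2 and 11 in KO and 8 and 8 in WT with median centring. At an unadjusted p below 0.05 there were 0 differences in the first list and 5, all negative, in the second, edgeR called 0 and 3, and DESeq2 0 and 1. Of 36 HIF-1 and glycolysis genes, the program that CITED2 is known to restrain by competing for p300, 6 rose and 24 fell in KO and 6 rose and 22 fell in WT (2 and 25 in KO and 3 and 26 in WT with median centring), and 4 had a positive and 1 a negative called difference (8 and 2 with DESeq2). With IFNg 2 of them were called higher and 11 lower in KO than in WT (median −0.16). Over all genes tested the shares with IFNg were 4.83% higher and 4.21% lower. With IL4 2 were called higher and 2 lower (median −0.15), against 6.14% and 3.14% of all genes. Pfkp, a phosphofructokinase, had contrasts of −2.91 in KO and −2.80 in WT (−0.11 (adjusted p = 0.35)), whereas Bnip3, a hypoxia-induced mitophagy receptor, was narrower (0.86 ± 0.17 (adjusted p = 0.002)), with means of 452 in KO IFNg and 831 in WT IFNg.

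Cholesterol synthesis genes rose with IL4 for 16 of 24 measured in KO and 10 in WT, 4 fell in each genotype, and 3 had a called, positive difference (8 with edgeR and 10 with DESeq2). With median centring 8 rose and 7 fell in KO and 4 rose and 8 fell in WT. Of these genes 0 were called higher and 2 lower in KO than in WT with IL4 (median −0.11). With IFNg 0 were called higher and 11 lower in KO (median −0.39), against 4.83% higher and 4.21% lower of all genes tested. Dhcr7, which catalyses the last step to cholesterol, had a contrast of 4.14 in KO and 3.53 in WT, and Fdps, farnesyl diphosphate synthase, had 0.81 in KO and 0.32 in WT (difference 0.49). Of 18 arginine and polyamine genes 8 rose and 5 fell in KO and 9 rose and 5 fell in WT, with Slc7a1, an arginine transporter, at −3.18 in KO and −3.02 in WT. Of 32 PPARγ, LXR and lipid genes 16 rose and 9 fell in KO and 17 rose and 6 fell in WT, 2 had a positive and 3 a negative difference (3 and 7 with edgeR), with Pparg itself at 3.77 in KO and 4.14 in WT. Unfolded protein response genes rose for 15 of 24 and fell for 8 in both genotypes. Asns, asparagine synthetase and an ATF4 target, had a contrast of −3.31 in KO and −3.38 in WT. Cell cycle genes rose for 17 of 32 and fell for 3 in KO and rose for 19 and fell for 3 in WT, although Mki67, the Ki-67 proliferation antigen, fell and was narrower (0.79). Of 30 lysosomal genes 12 rose and 8 fell in KO and 16 rose and 5 fell in WT, and Sqstm1, an autophagy receptor, had a wider contrast (−0.49). Beside these lists, 21.3% of all genes tested rose and 20.8% fell in KO, and 21.6% and 22.2% in WT. Differences were called for 5.56% of the arginine, 12.5% of the unfolded protein, 9.38% of the cell cycle and 16.7% of the lysosomal genes. Of all genes tested 5.23% were called. With median centring the rises and falls in KO were 5 and 7 for the arginine list, 12 and 12 for the PPARγ and lipid list, 11 and 9 for the unfolded protein response and 5 and 15 for the lysosome, and in WT 6 and 5, 14 and 13, 11 and 9, and 7 and 12 in the same order.

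Among the transcription factors of polarisation, 34 measured, 9 rose and 20 fell with IL4 in KO and 12 rose and 18 fell in WT. Their differences were 5 positive and 9 negative. Batf2 had contrasts of −6.00 in KO and −6.39 in WT, and Mycl, with few reads under IL4, was narrower (2.79 (adjusted p = 0.026)), a call lost under 10 of 24 alternatives. Of 16 measured genes for CITED2 and its partners, 2 had a positive and 3 a negative difference, among them Crebbp, which encodes CBP (−0.39 (adjusted p = 0.0048)). Of 34 scavenger, lectin and phagocytic receptors 4 had a positive and 5 a negative difference, with Clec4a1 wider (0.93). Of 27 macrophage identity genes 10 rose and 11 fell in KO and 14 rose and 10 fell in WT (7 and 15 in KO and 9 and 13 in WT with median centring), with 3 positive and 7 negative differences. The called differences were 41.2% of the transcription factors, 31.2% of CITED2 and its partners, 26.5% of the receptors and 37% of the identity genes. Over all genes tested the share was 5.23%, and 21.3% rose and 20.8% fell with IL4 in KO (21.6% and 22.2% in WT).

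Neutrophil and granulocyte precursor markers, 15 measured of 16, had 1 rise and 8 falls with IL4 in KO and 1 rise and 5 falls in WT, with 0 positive and 3 negative called differences of the contrasts. Their summed level was 5384 to 5594 in KO IL4, 6268 to 6592 in KO IFNg, 5230 to 5569 in WT IL4 and 5778 to 6134 in WT IFNg, with Prtn3 at 0 in KO IL4 and Retnlg at 0 in WT IFNg. The sums hide lower members: with IL4, 5 were called lower and 0 higher in KO than in WT (median −1.13). Over all genes 3.14% were lower and 6.14% higher. With IFNg 1 was called higher and 0 lower (median −0.11). The median contrast was −1.31 in KO and −0.27 in WT. Called rises made up 21.3% and falls 20.8% of all genes tested in KO, and 21.6% and 22.2% in WT. Differences of the contrasts were called for 20% of the list, against 5.23% of all genes tested. S100a9, a calcium-binding protein of neutrophils and monocytes, had 92.2, 105 and 88.4 in KO IL4, against 693, 814 and 861 in KO IFNg, and 257, 215 and 206 in WT IL4, against 901, 828 and 818 in WT IFNg. KO minus WT was −1.24 with IL4 and −0.11 with IFNg, a difference of −1.12 ± 0.15 (adjusted p = 1.4e-05). For Ngp, a neutrophil granule protein, the difference of the contrasts was −1.01, a call lost without replicate 1 of both KO groups. Whether such cells take part in these differences was not tested.

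T and NK cell markers summed to 83.3 to 106 in KO IL4, 919 to 1027 in KO IFNg, 51.3 to 62.2 in WT IL4 and 644 to 682 in WT IFNg, of which Lck alone made 17.6, 884, 9.27 and 614 on average. Of these 15 markers 1 was called in KO, lower with IL4, and 0 differences of the contrasts were called or had an unadjusted p below 0.05 (0 with edgeR and DESeq2). B cell markers summed to 969 to 1037 in KO IL4, 499 to 585 in KO IFNg, 822 to 932 in WT IL4 and 456 to 486 in WT IFNg, with 1 rise, 1 fall and 0 called differences among 10 measured of 12 (0 at an unadjusted p below 0.05, 0 with edgeR and DESeq2). Dendritic cell markers summed to 20970 to 22220 in KO IL4, 6241 to 6678 in KO IFNg, 21300 to 21590 in WT IL4 and 5612 to 5845 in WT IFNg. Itgax dominated the sums with IL4 only, since Bst2 averaged 3318 in KO IFNg and 2893 in WT IFNg. Of 9 measured 2 rose and 2 fell in KO, with 2 positive and 1 negative called differences. These differences were 33.3% of the dendritic list, against 5.23% of all genes tested, of which 21.3% rose and 20.8% fell in KO. Of 13 fibroblast genes 5 rose in KO with 0 falls (4 and 4 with median centring), and of 8 mast cell genes measured 1 fell, with 0 called differences in either list. In both lists 0 differences had an unadjusted p below 0.05, and edgeR and DESeq2 called 0. The part of any of these cells in the contrasts was not tested.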

How the data were processed

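RNA from bone marrow-derived macrophages was sequenced in 24 libraries of 8 groups, and the 12 libraries of KO IL4, KO IFNg, WT IL4 and WT IFNg carried the comparisons. The deposited table holds a signal, read counts per gene that the authors had divided by 1 factor per library. The values themselves show it: every value was a whole multiple of the library's smallest step within 0.05 reads, and whole reads were recovered for all genes. TopHat2 2.2.1, Cufflinks 2.2.1, Cuffdiff and mouse build mm10 (GRCm38) are named per the submitters' processing notes. The counting tool, and whether counting used strand, are not given in the sources used here. Positions are from GENCODE M21, which held 42462 of 43629 identifiers.

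Genes that reached a value of 1 in 3 or more libraries were analysed as log2(value + 1) with limma 3.58.1 in R 4.3.3 (mean-variance trend, 1 mean per group, all 24 libraries, 16 residual degrees of freedom). The spread was thus also estimated from untreated libraries and from libraries treated with lipopolysaccharide (LPS), of both genotypes. KO LPS replicate 1 had only 1478507 reads, with 1 read worth 23.6 units. It had a weight of 0.0635 in the fit with library weights. Fold changes on this scale understate the change of low genes. Calls were made at 0.05 after Benjamini-Hochberg adjustment over the 18637 genes. The contrast is IL4 minus IFNg within a genotype, and the difference of the contrasts is KO minus WT. Values after ± are standard errors of the fit unless marked SD. Narrower and wider genes had a called difference of the sign opposite to, or the same as, a called averaged contrast of at least 1 in size on the log2 scale.

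Named genes were Cited2, preset markers, the 8 largest called rises and falls in KO with non-overlapping groups and a mean of at least 100 in the higher group, the 8 largest narrower and 8 largest wider genes, the 4 largest with opposite directions, and list members, at most 3 per list by p in the difference and 2 by p in KO. Predicted genes and pseudogenes were named only as list members, and some genes that meet the rule are not described. The members, the 27 lists and the rule were chosen with earlier results of these data known. Replicate numbers did not pair libraries. Alternatives were edgeR 4.0.16 and DESeq2 1.42.0 on the recovered reads, other pseudocounts, filters, scaling, libraries, weights and depth, a replicate block, and leaving out single libraries. Floors of 3 reads cover counting error only. No library duplicated another (chi-square per degree of freedom 3.01 to 24.5 over 12 pairs).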

Additional observations from a re-analysis of the deposited data

Results flagged for a closer look

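For 65 named genes the test of the difference between the KO and WT contrasts of IL4 against IFNg was called, and the log2 differences (KO minus WT) are given here by group, with no explanation weighed. A positive value is a smaller contrast in KO for a gene higher with IFNg, and a negative value a smaller contrast in KO for a gene higher with IL4.

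Among interferon-inducible GTPases the difference was 3.35 for Gbp4, 3.32 for Gvin1, 2.81 for Iigp1, 2.33 for Tgtp1, 2.31 for Gbp5, 2.17 for Gbp3, 2.13 for Gbp9 and 1.59 for Gbp2. Among antiviral genes it was 2.75 for Ifi44, 2.64 for Ifit2, 2.43 for Ifit3, 2.36 for Mx1, 2.17 for Ifit1, 1.80 for Zbp1 and 1.34 for Usp18. Interferon signalling factors stood at 1.92 for Irf7, 0.93 for Stat2 and 0.72 for Irf1. In antigen processing the values were 1.28 for H2-T24, 0.90 for Nlrc5, 0.87 for Tap1 and 0.74 for Psmb8.

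Other genes higher with IFNg, averaged over the genotypes, with positive values were Clic5 (3.04), Olfr56 (2.90), Ly6a (2.90), Mycl (2.79), Cxcl10 (2.41), Cxcl9 (2.34), Serpina3f (2.19), Fcgr4 (1.60), Nos2 (1.59), Fcgr1 (1.44), Cd86 (1.12), Csf1 (0.90), Bnip3 (0.86), Mki67 (0.79), Tnf (0.59) and Icam1 (0.40). Genes higher with IL4 had negative values for Retnla (−3.29), Myc (−2.04), Flt1 (−1.56), Mrc1 (−0.84), Egr2 (−0.76), Cebpa (−0.72), Fabp4 (−0.58), Bhlhe40 (−0.57) and Itgax (−0.55).

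Contrasts larger in KO were those of Arnt2 (−2.11), Trim30d (−1.55), Cxcl2 (−1.42), Zranb3 (−1.36), Plagl1 (−1.16), S100a9 (−1.12), Plau (−1.09), Ngp (−1.01), Irf8 (−0.50) and Sqstm1 (−0.49) among genes higher with IFNg, and of Siglece (1.95), Clec4a1 (0.93) and Fdps (0.49) among genes higher with IL4. Contrasts called in opposite directions in the genotypes were those of Prcp (−2.02), Nabp1 (1.45), Ly6e (1.43), Emp1 (−1.35) and Crebbp (−0.39).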

How the results depend on the processing

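Across 24 alternatives no named gene changed direction, and neither did the median difference over IFNg-high or IL4-high genes. The gene lists were recomputed with edgeR, DESeq2 and median centring only. Their median contrasts changed sign with median centring, in KO, WT or both, for the oxidative phosphorylation, arginine, PPARγ and lipid, cholesterol, lysosome, macrophage identity, dendritic cell and T and NK cell lists. Their median differences changed sign with edgeR for inflammatory genes, and with edgeR and DESeq2 for fibroblast and mast cell markers. Without a single library, 3588 to 3924 genes were higher and 3595 to 3845 lower with IL4 in KO, 3573 to 4050 higher and 3820 to 4175 lower in WT, 476 to 647 differences were positive and 254 to 352 negative, 405 to 491 genes were narrower and 42 to 62 wider, and the median difference was 0.24 to 0.29 for IFNg-high and −0.08 to −0.02 for IL4-high genes. The number of differences depended on the test: edgeR gave 601 negative differences and 92 wider genes, and DESeq2 1053 positive and 653 negative with 116 wider. A fit of the 12 IL4 and IFNg libraries gave 1030 positive and 555 negative differences with 113 wider genes, and library weights 1426 and 954 with 826 narrower and 157 wider. Reads thinned to 15893968 per library gave 85 wider genes and a median difference of −0.10 for IL4-high genes. A pseudocount of 10 gave −0.10 for the same median. Median centring gave 2169 higher and 6029 lower in KO, 2337 higher in WT, and median differences of 0.16 for IFNg-high and −0.11 for IL4-high genes. Without replicate 1 of both KO groups, an alternative chosen after seeing the data, 417 differences were positive and 231 negative. Over all alternatives 362 to 826 genes were narrower and 42 to 157 wider, and the cause of these shifts was not tested.

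The replicate numbers did not pair the libraries: deviations of libraries with the same number correlated at −0.548 to 0.373 over 18 pairs, and 1 of 12 libraries correlated best with its own number. With the replicate block KO had 3939 genes higher and 3828 lower with IL4, WT had 3986 and 4107, 570 differences were positive and 309 negative, 462 genes were narrower and 50 wider, and the median differences were 0.26 and −0.05.

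Of 42 named genes called in KO, 41 kept their call under every alternative and Emp1 lost it. Of the 2 not called, Pdcd1lg2 gained a call and Ccl24 did not. Of 65 named differences 60 kept their call. Gvin1 and Retnla lost it with edgeR, DESeq2 or a pseudocount of 0.1, Mycl under 10 alternatives, Tgtp1 under 14, and Ngp with thinned reads or without replicate 1 of both KO groups. Genes with few reads under IL4, where 1 read is worth up to 1.06 units in KO and 0.94 in WT, have contrasts limited by depth.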

Other observations

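Further polarisation transcription factors, chosen after their values were seen, had a smaller IL4 response in KO or a higher level with IFNg. Myc, a transcription factor of growth and metabolism, had 75.1, 67.7 and 72.4 in KO IL4, against 76.2, 49.2 and 42.8 in KO IFNg, and 216, 218 and 218 in WT IL4, against 35.9, 42.2 and 40.5 in WT IFNg. The KO groups overlapped and their contrast was not called (0.39 (adjusted p = 0.24)), while every WT IL4 library was above every other library of the 4 groups, and the difference of the contrasts was −2.04 ± 0.35 (adjusted p = 0.00045). Cebpa, a myeloid transcription factor, had 3386, 3599 and 3549 in KO IL4, against 1508, 1589.8 and 1467 in KO IFNg, and 2986, 3202 and 3132 in WT IL4, against 886, 761 and 801 in WT IFNg. Its IFNg groups lay further apart between the genotypes (0.90) than its IL4 groups (0.18), with a difference of the contrasts of −0.72 ± 0.15 (adjusted p = 0.0024). Bhlhe40, a basic helix-loop-helix repressor, had the same order, at 0.66 with IFNg and 0.09 with IL4 (−0.57 ± 0.07 (adjusted p = 2.9e-06)).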
